A study of Mus musculus with 8 samples.

Results

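The 10 genes described here encode CC chemokine ligands, and they were chosen by symbol: Ccl2, Ccl3, Ccl4, Ccl5, Ccl6, Ccl7, Ccl8, Ccl9, Ccl12 and Ccl24. They are 10 of the 36708 genes in a table of transcript abundance from macrophages sorted out of mouse left ventricles. In 4 libraries the cells came from mice that received a bone marrow transplant (BMT) with the genotype label LOY, an abbreviation of Y chromosome loss. The other 4 libraries are the controls, and there both the transplant and the genotype carry the label Control, and the treatment label of all 8 libraries reads Control. Per the labels, 6000 cells per library were sorted as CD45.2-positive, Ly6G-negative, CD64-positive and positive for a red fluorescent protein. The labels give no age, sex or strain and do not state what the fluorescent protein marks. They also do not say whether each library is a separate mouse or a pool. The p-values therefore measure the spread between these libraries, which may be partly technical. The comparison asks whether cardiac macrophages of the LOY group express different amounts of these ligands than those of the Control group.

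CC chemokines are small secreted proteins named for the adjacent pair of cysteines near their amino terminus. They bind G protein-coupled receptors of the Ccr family on leukocytes and direct where those cells move. In the heart, macrophages are a known source of ligands of Ccr2, the receptor through which monocytes leave the bone marrow and enter injured tissue, and of Ccr1, which monocytes and macrophages carry. Atypical receptors such as Ackr2 bind many of the same ligands and remove them without signalling through G proteins.

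Some properties of the whole data set bear on what follows. Values are TPM, a measure of transcript abundance scaled to the same total in each library and to transcript length, so levels can be compared between genes but the read depth of a library is unknown. The summed TPM of the single-copy Y genes Ddx3y, Eif2s3y, Kdm5d and Uty was 2.77, 46.4, 1.49 and 2.12 in LOY replicates 1 to 4, and between 80.8 and 109 in the Control libraries, so LOY replicate 2 held far more Y transcripts than the other LOY libraries. LOY replicate 1 stood apart in macrophage subtype markers, with the lowest monocyte and the highest resident marker level of all 8 libraries. The libraries carried macrophage markers: C1qa lay between 4138 and 4563 TPM in LOY and between 4364 and 5118 TPM in Control libraries, and all 11 genes of a macrophage list reached the mean of 1 TPM over the 8 libraries that was required for testing. In the limma comparison described below, 2 of these 11 had an unadjusted p under 0.05 and were higher in LOY libraries, and 0 were lower. Of all tested genes 19.3% were higher and 3.45% lower at this p. The 2 were Mertk, at 50.7 ± 16.7 TPM in LOY and 21.9 ± 8.20 TPM in Control libraries, and Csf1r, at 1421 ± 129 and 920 ± 358 TPM (SD, n = 4 each). None of the 11 had an adjusted p under 0.05. Their median log2 fold change was -0.017, beside 0.16 for all tested genes, and 5 of the 11 lay above 0. Markers of other cell types were present at unequal sums. Summed TPM of 8 cardiomyocyte genes was 99.0 to 207 in LOY and 77.6 to 159.6 in Control libraries, with the highest sum in LOY replicate 1. For 7 neutrophil genes it was 83.6 to 102 in LOY and 44.5 to 88.9 in Control libraries, most of it Csf3r, while S100a8 and S100a9 reached at most 6.17 TPM. For 5 B cell genes it was 39.7 to 47.1 in LOY and 51.7 to 77.1 in Control libraries, most of it Cd79b. Their part in the ligand levels was not tested. Summed TPM of 8 T cell genes was 7.27 to 10.9 in LOY and 7.67 to 10.8 in Control libraries, of 7 natural killer cell genes 1.70 to 3.99 in LOY and 0.914 to 1.54 in Control libraries, and of 5 eosinophil genes at most 2.02 in LOY and at most 1.73 in Control libraries. The natural killer cell receptor gene Ncr1 was listed at 0 in LOY replicates 1 and 4 and in every Control library.

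The 10 ligands together made up 0.587% to 0.773% of all TPM in LOY libraries and 0.561% to 0.825% in Control libraries. Across the 8 libraries Ccl12 was the most abundant, at 1964 ± 397 TPM (SD, n = 8), and ranked 48 among the 11725 genes tested. Ccl6 followed at 1376 ± 99.6 TPM, with Ccl12 above Ccl6 in 7 of 8 libraries. Ccl4 (779 ± 146 TPM) and Ccl7 (756 ± 304 TPM) came next and overlapped, and Ccl4 was the higher of this pair in 5 of 8 libraries. Ccl8 (509 ± 206 TPM), Ccl2 (468 ± 180 TPM) and Ccl9 (466 ± 73.5 TPM) overlapped in their ranges, as did Ccl7 and Ccl8, and could not be ordered beyond their spread. Ccl3, at 292 ± 58.4 TPM, lay below Ccl9 in every library and below Ccl2 and Ccl8 in 7 of 8 libraries each, the exception being LOY replicate 4. Lower still, with no overlap with any other member, stood Ccl5 at 86.9 ± 35.7 TPM and Ccl24 at 11.3 ± 6.91 TPM (SD, n = 8 for each), and Ccl24 ranked 7157. Of 14 other CC ligand genes, Ccl17, Ccl25 and Ccl27a alone reached a mean of 1 TPM, their highest library held 10.5 TPM, and Ccl20 and Ccl27b were listed at 0 in every library.

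**Figure D1:**
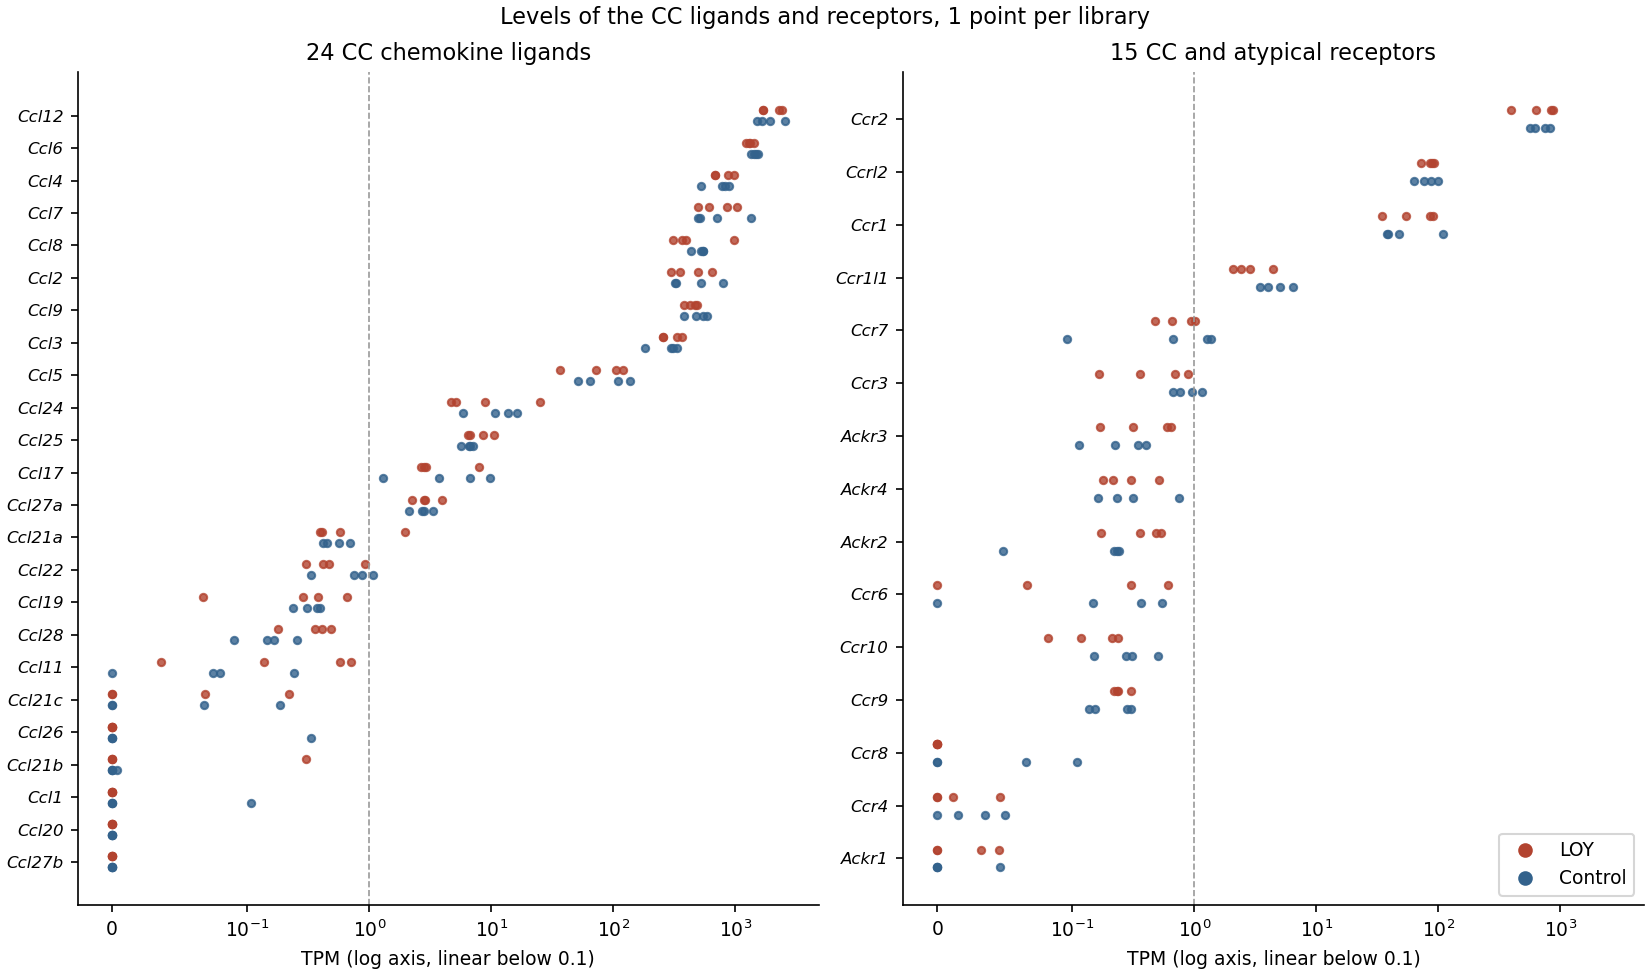
Levels of 24 CC chemokine ligands (left panel) and 15 CC and atypical receptors (right panel) in TPM on a log axis that is linear below 0.1, with 1 point per library, LOY in red above Control in blue, and a dashed line at 1 TPM. Of the ligands, 9 of the 10 described here lie above 36 TPM in every library, and Ccr2, Ccrl2 and Ccr1 are the receptors shown that lie above 30 TPM in every library.

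No ligand differed between LOY and Control libraries beyond the spread between libraries. With limma and Benjamini-Hochberg adjustment over all 11725 genes, 0 of the 10 members had an adjusted p under 0.05, and neither did any other gene (0.0% of genes tested). Among the genes that did not pass were the 4 Y genes named above. Their median log2 fold change was -2.80, and all 4 were lower in LOY libraries at an unadjusted limma p under 0.05. An adjusted p above 0.05 in this fit therefore does not show that a gene is unchanged. At an unadjusted p under 0.05 the count of members was also 0, where 22.7% of all tested genes had such a p (19.3% higher and 3.45% lower in LOY libraries). That split depended on the scaling: of all tested genes 1272 were higher and 1293 lower at this p after median-of-ratios scaling, and 1142 higher and 1137 lower after quantile normalization, against 2262 higher and 405 lower with TPM as deposited. The groups overlapped for all 10 members, whereas they did not overlap for 9.37% of all tested genes (6.76% higher and 2.61% lower in LOY libraries). In the authors' deposited table none of the 10 members had an adjusted p under 0.05, against 3.94% of the 16073 genes with an adjusted p there, and the members' adjusted p was 0.743 or more. Over all genes the number of calls depended on the libraries. Without Control replicate 1, 1805 genes (15.4%) had a limma adjusted p under 0.05 and 33.0% an unadjusted p under 0.05, and with library weights these were 3103 genes (26.5%) and 40.8%. Without LOY replicate 2 there were 5 such genes (0.0426%), with 14.1% at an unadjusted p under 0.05, and without Control replicate 4 there was 1. In each of these settings 0 of the 10 members had an adjusted p under 0.05, and in the first 3 of them 0 had an unadjusted p under 0.05. The median log2 fold change of the 10 members was -0.11 on the log2(TPM + 1) scale, beside 0.16 for all tested genes, and all 10 lay below that median of 0.16. On the log2(TPM + 1) scale 4 members had a difference above 0 (Ccl3, Ccl4, Ccl7 and Ccl12) and 6 below 0, while by mean TPM Ccl7 was slightly lower and Ccl8 slightly higher in LOY libraries. After median-of-ratios scaling, which brings the median of all tested genes to 0.00053, all of these 4 were below 0 as well, at -0.045, -0.072, -0.14 and -0.10, so no direction is given for them.

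**Figure D2:**
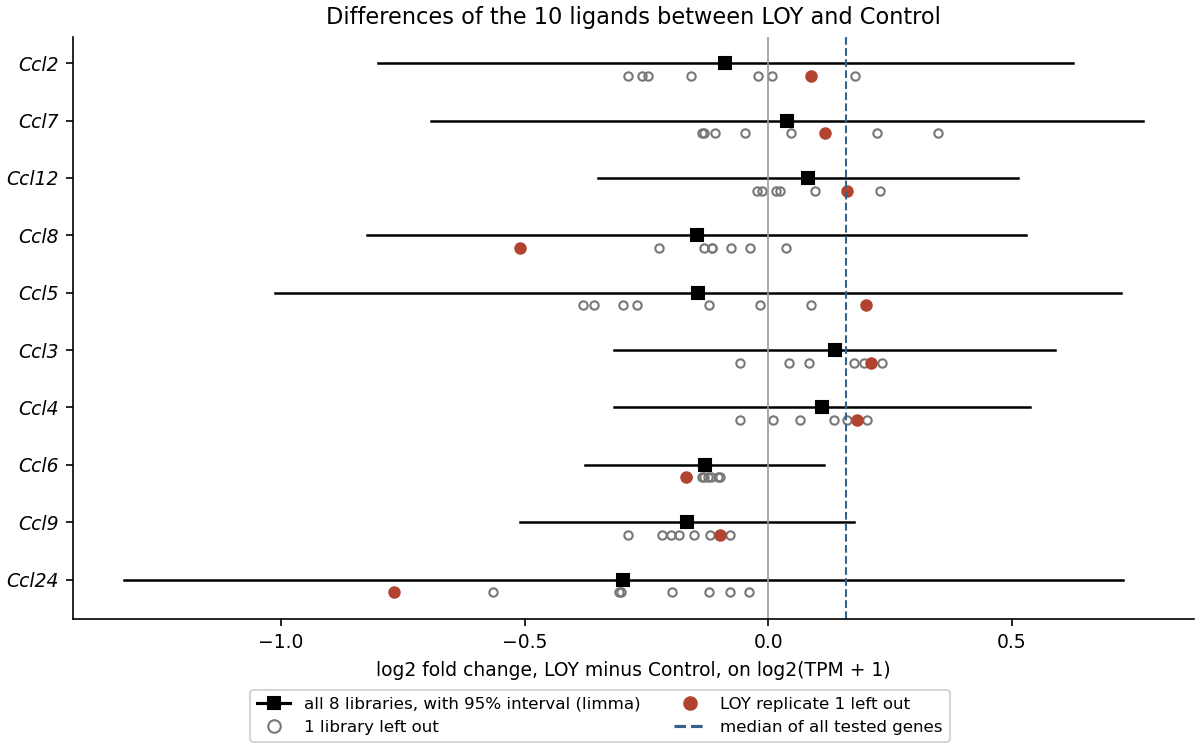
Log2 fold change of each ligand, LOY minus Control, on the log2(TPM + 1) scale (squares, with 95% intervals from limma over all 8 libraries), and the same value with 1 library left out (open circles; filled red without LOY replicate 1). Every interval includes 0, and the estimates for Ccl8 and Ccl24 move to -0.51 and -0.77 when LOY replicate 1 is left out. The dashed line is the median of all tested genes, 0.16.

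The genes Ccl2, Ccl7 and Ccl12 encode chemoattractants of monocytes, known as MCP proteins, that act through Ccr2. They lie on the plus strand of mouse chromosome 11 (GRCm38), Ccl2 at 82035571 to 82037453, Ccl7 at 82045712 to 82047525 and Ccl12 at 82101845 to 82103400. The gap is 8.3 kb between Ccl2 and Ccl7 and 54.3 kb between Ccl7 and Ccl12. Ccl12 is found in rodents, where it is a close relative of Ccl2.

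Ccl2 stood at 296, 496, 649 and 350.1 TPM in LOY replicates 1 to 4, and at 317, 326, 522 and 789.9 TPM in Control replicates 1 to 4. The highest Ccl2 library, Control replicate 4, and the lowest, LOY replicate 1, belonged to different groups, and the other 6 libraries interleaved. The means were 448 ± 159 TPM in LOY and 489 ± 222 TPM in Control libraries (SD, n = 4 each), and the log2 fold change was -0.088 (SE 0.32; adjusted p = 0.882 in limma). The 95% interval of this difference, back-transformed from the log2(TPM + 1) scale, runs from 0.574 to 1.54 times the Control level. Intervals given below as multiples of Control are on that scale too, and are not ratios of the mean TPM.

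Ccl7 held 611, 863, 1034 and 490.5 TPM in the LOY libraries, against 514, 490.5, 713 and 1335 TPM in the Control libraries. Here too Control replicate 4 was the highest, and LOY replicate 4 and Control replicate 2 shared the lowest level. The means were 749.6 ± 245 TPM in LOY and 763 ± 394 TPM in Control libraries (SD, n = 4 each), whereas the log2 difference, LOY minus Control, was 0.039 (SE 0.33; adjusted p = 0.950 in limma), with an interval from 0.619 to 1.70 times Control.

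Ccl12 held 1680.4, 2273, 2417 and 1683 TPM in the LOY libraries, against 1667, 1509.9, 1931 and 2552 TPM in the Control libraries. LOY replicates 2 and 3 and Control replicate 4 were the high libraries for all of Ccl2, Ccl7 and Ccl12 except that Control replicate 3 exceeded LOY replicate 2 for Ccl2. The means of Ccl12 were 2013 ± 388 TPM in LOY and 1915 ± 459 TPM in Control libraries (SD, n = 4 each; log2 fold change 0.081, SE 0.19; limma adjusted p = 0.815), and the interval, 0.785 to 1.43 times Control, was narrower than those of Ccl2 and Ccl7.

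Ccl8, next to Ccl12 on the same strand (chromosome 11, 82115185 to 82116799), encodes another MCP protein, which in mice is an agonist of Ccr8. It did not follow Ccl2, Ccl7 and Ccl12. LOY replicate 1 held 974 TPM and LOY replicates 2 to 4 held 364, 394 and 311 TPM, while Control replicates 1 to 4 held 539, 539, 521 and 431 TPM. The LOY libraries thus lay on both sides of the Control range, 3 below it and LOY replicate 1 above it. The group means were nearly equal, 511 ± 311 TPM in LOY and 508 ± 51.9 TPM in Control libraries (SD, n = 4 each; log2 fold change -0.15, SE 0.30; limma adjusted p = 0.786), and they describe no LOY library. Without LOY replicate 1 the LOY mean was 356 ± 41.6 TPM (SD, n = 3), the log2 fold change -0.51 (SE 0.13) and the interval -0.79 to -0.23. That value had an unadjusted limma p of 0.00273 but did not pass over all genes (limma adjusted p = 0.139), where 26.1% of all tested genes had an unadjusted p under 0.05 without this library. The exact two-sided permutation p for those 3 against 4 libraries was 0.0571.

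The promoter windows of Ccl12 and Ccl8 are shown because the genes are adjacent paralogs with unlike profiles. That of Ccl3 is shown because Ccl3 varied together with Ccl4, for which no window was found. RefSeq windows on GRCm38.p6 were found for 5 of the 10 members (Ccl3, Ccl6, Ccl8, Ccl9 and Ccl12). Each line gives the 250 bases before the annotated start, 5′ to 3′ on the strand of the gene, with the letters TATAAA in capitals where they occur. The windows are chr11:82101595-82101844 on the plus strand for Ccl12, chr11:82114935-82115184 on the plus strand for Ccl8 and chr11:83649379-83649628 on the minus strand for Ccl3.
Ccl12: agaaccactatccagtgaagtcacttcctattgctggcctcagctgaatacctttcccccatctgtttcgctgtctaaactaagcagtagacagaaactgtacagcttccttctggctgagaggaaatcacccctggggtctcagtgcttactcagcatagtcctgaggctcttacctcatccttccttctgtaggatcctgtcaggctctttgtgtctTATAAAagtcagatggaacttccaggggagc
Ccl8: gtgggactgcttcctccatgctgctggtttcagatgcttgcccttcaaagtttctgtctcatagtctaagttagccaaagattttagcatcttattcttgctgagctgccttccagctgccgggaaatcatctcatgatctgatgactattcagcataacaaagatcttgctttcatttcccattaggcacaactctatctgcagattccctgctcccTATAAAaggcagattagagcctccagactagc
Ccl3: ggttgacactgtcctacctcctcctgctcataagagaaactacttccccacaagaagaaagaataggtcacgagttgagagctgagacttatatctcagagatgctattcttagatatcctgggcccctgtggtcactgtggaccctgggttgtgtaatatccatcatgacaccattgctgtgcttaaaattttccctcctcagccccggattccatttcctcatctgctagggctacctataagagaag

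The Ccl12 and Ccl8 windows were identical at 54.9% of 268 aligned columns, the highest identity among the 10 pairs of these 5 windows, whose other values lay between 44.8% and 49.5%. Both hold TATAAA close to the start, at positions -31 to -26 in Ccl12 and -32 to -27 in Ccl8, and Ccl9 holds it farther upstream, nearest the start from -92 to -87, and on the opposite strand as well. On either strand, 12.4% of all 32851 promoter windows in the RefSeq table contain TATAAA in these 250 bases. Both strands were also searched for an NF-kB motif (in 4.11% of all windows), an AP-1 motif (TGANTCA, 6.75%), a C/EBP motif (TTGCNNAA, 9.56%), an interferon response motif (2.98%) and a PU.1 motif (GAGGAAGT, 2.44%). The Ccl9 window had the NF-kB and the AP-1 letters, with no overlap between them, and the other 4 windows had none of these letters.

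Ccl3 and Ccl4 encode the MIP-1 alpha and MIP-1 beta proteins, chemokines that activated macrophages secrete, and Ccl3 is a ligand of Ccr1. They lie 13.2 kb apart on opposite strands of chromosome 11, Ccl3 at 83647844 to 83649355 on the minus strand and Ccl4 at 83662584 to 83664683 on the plus strand. Ccl3 stood at 257, 257, 336 and 365 TPM in LOY replicates 1 to 4 and at 182, 295, 334 and 308 TPM in Control replicates 1 to 4. Control replicate 1 was the lowest library and the other 3 Control libraries lay within the LOY range. The means of Ccl3 were 304 ± 55.0 TPM in LOY and 279.8 ± 67.5 TPM in Control libraries (SD, n = 4 each; log2 fold change 0.14, SE 0.20; limma adjusted p = 0.700).

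Ccl4 stood at 686, 682, 983 and 874 TPM in LOY replicates 1 to 4 and at 520.3, 777, 893 and 819.6 TPM in Control replicates 1 to 4. The low library was again Control replicate 1, and the groups overlapped. The means were 806 ± 148 TPM in LOY and 752 ± 162 TPM in Control libraries (SD, n = 4 each; log2 fold change 0.11, SE 0.19; limma adjusted p = 0.742), and the intervals reach from 0.803 to 1.51 times Control for Ccl3 and from 0.803 to 1.45 times Control for Ccl4. The ratio of Ccl4 to Ccl3 hardly varied between libraries, at 2.66 ± 0.217 in LOY and 2.71 ± 0.107 in Control libraries (SD, n = 4 each; exact two-sided permutation p = 0.857).

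Ccl5 (chromosome 11, 83525778 to 83530518, minus strand) encodes RANTES, a ligand of Ccr1 and Ccr3 that T cells and natural killer cells also make. It held 36.5, 105, 119 and 72.5 TPM in the LOY libraries, against 51.2, 64.5, 110.0 and 137 TPM in the Control libraries. The lowest library was LOY replicate 1 and the highest Control replicate 4, as for Ccl2. The means were 83.2 ± 36.8 TPM in LOY and 90.6 ± 39.8 TPM in Control libraries (SD, n = 4 each), and the log2 fold change was -0.14 (SE 0.39; limma adjusted p = 0.838). Its interval, 0.495 to 1.65 times Control, leaves room for a large difference in either direction. T cell and natural killer cell markers stood at the low sums given above, and their part in the Ccl5 level was not tested.

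Ccl6 and Ccl9 encode ligands of Ccr1 of the MIP-1 kind that are found in rodents, and mouse macrophages express both without stimulation. The genes are neighbours on the minus strand of chromosome 11, Ccl9 at 83572919 to 83578636 and Ccl6 at 83587882 to 83593087. Ccl6 was the steadiest member, with a coefficient of variation of 7.24% over the 8 libraries, against a median of 18.2% over the 7454 tested genes whose mean reached 10 TPM. Its LOY libraries held 1422, 1231, 1312 and 1291 TPM and its Control libraries 1423, 1520.4, 1477 and 1334 TPM. The 3 lowest libraries were LOY replicates 2, 3 and 4, and LOY replicate 1 lay among the Control libraries. The means were 1314 ± 79.9 TPM in LOY and 1439 ± 80.1 TPM in Control libraries (SD, n = 4 each; log2 fold change -0.13, SE 0.11; limma adjusted p = 0.471; interval 0.770 to 1.08 times Control). The exact two-sided permutation p was 0.0571, where 0.0286 is the smallest that 4 against 4 libraries allow. After median-of-ratios scaling Ccl6 had that smallest exact permutation p of 0.0286, the 1 member of 10 to do so, where 9.28% of all tested genes had an exact p under 0.05, and limma gave an adjusted p of 0.252.

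Ccl9 held 377, 466, 484 and 421 TPM in the LOY libraries, against 380.2, 587, 473 and 541 TPM in the Control libraries. The lowest library of each group was its replicate 1, and the 2 highest were Control libraries. The means were 437 ± 47.8 TPM in LOY and 495 ± 89.9 TPM in Control libraries (SD, n = 4 each; log2 fold change -0.17, SE 0.15; limma adjusted p = 0.511), with an interval from 0.702 to 1.13 times Control.

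Ccl24 (chromosome 5, 135569937 to 135573049, minus strand), the member outside chromosome 11, encodes eotaxin-2, a ligand of the eosinophil receptor Ccr3 that macrophages make under alternative activation. LOY replicates 1 to 4 held 25.0, 4.70, 5.18 and 8.85 TPM, and Control replicates 1 to 4 held 13.8, 16.3, 10.8 and 5.85 TPM. LOY replicate 1 was the highest library and LOY replicates 2 and 3 were the lowest, so the LOY group enclosed the Control group. The means were 10.9 ± 9.54 TPM in LOY and 11.7 ± 4.48 TPM in Control libraries (SD, n = 4 each; log2 fold change -0.30, SE 0.46; limma adjusted p = 0.712), with an interval from 0.400 to 1.66 times Control. Without LOY replicate 1 the log2 fold change was -0.77 (SE 0.33; limma unadjusted p = 0.0431, adjusted p = 0.181). Ccl24 had the largest coefficient of variation of the 10 members, 61.2%. The median of the 10 was 29.3%, against 22.3% for all tested genes and 18.2% for those whose mean reached 10 TPM, as that of each member did.

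**Figure D3:**
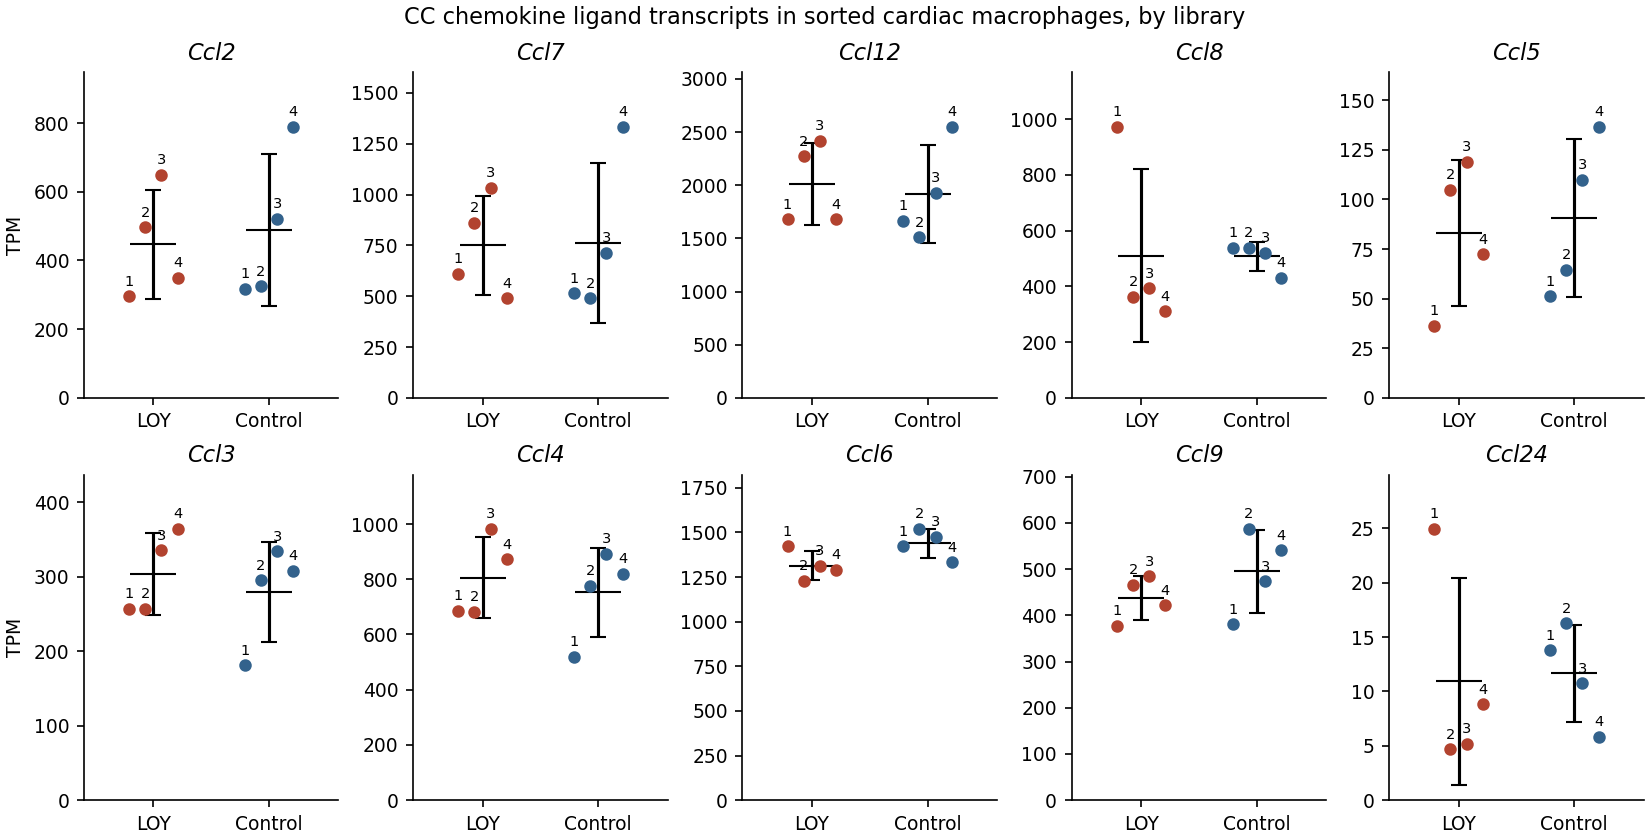
TPM of each ligand in the LOY libraries (red, left) and the Control libraries (blue, right), with 1 numbered point per replicate, a bar at the mean and whiskers of 1 SD (n = 4 each), on axes that start at 0. The groups overlap in every panel, and LOY replicate 1 stands alone at 974 TPM of Ccl8 and 25.0 TPM of Ccl24.

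While the groups did not separate, the ligands varied together in sets across the 8 libraries. Pearson's r of log2(TPM + 1) was computed for all 45 pairs of members, with exact permutation over 40320 pairings and adjustment over the pairs. By Pearson's r 7 pairs had an adjusted p under 0.05, 6 of them positive, and by Spearman's rho 1 pair did. The share of such pairs among all tested genes was not computed, so these counts do not set the ligands apart from other genes. The count of 7 was 2 without Control replicate 1 and 3 without LOY replicate 3 or Control replicate 4. The first set was Ccl2, Ccl7 and Ccl12. Ccl7 and Ccl12 had r = 0.97 (exact permutation adjusted p = 0.00893; rho 0.86, adjusted p = 0.0804), Ccl2 and Ccl12 r = 0.94 (exact permutation adjusted p = 0.0151; rho 0.88, adjusted p = 0.0804) and Ccl2 and Ccl7 r = 0.94 (exact permutation adjusted p = 0.0151; rho 0.74, adjusted p = 0.159). Ccl5 varied with Ccl2, in the same order in all 8 libraries (r = 0.93, exact permutation adjusted p = 0.0192; rho 1.00, adjusted p = 0.00223). Ccl3 and Ccl4 formed a pair of their own (r = 0.96, exact permutation adjusted p = 0.0117; rho 0.93, adjusted p = 0.0502), with r of 0.26 to 0.55 to Ccl2, Ccl7 and Ccl12. Ccl8 varied with Ccl24 (r = 0.83, exact permutation adjusted p = 0.0462; rho 0.86, adjusted p = 0.0804), and Ccl24 ran opposite to Ccl5 (r = -0.88, exact permutation adjusted p = 0.0394; rho -0.76, adjusted p = 0.150).

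Without the 2 libraries farthest from the median of the first gene of a pair, r was 0.94 for Ccl7 and Ccl12, 0.84 for Ccl2 and Ccl12, 0.79 for Ccl2 and Ccl7, 0.93 for Ccl2 and Ccl5, 0.97 for Ccl3 and Ccl4, 0.96 for Ccl8 and Ccl24 and -0.73 for Ccl5 and Ccl24. Without LOY replicate 1 alone, r was 0.68 for Ccl8 and Ccl24. Members next to each other on the chromosome had unlike r. It was 0.94 for Ccl2 and Ccl7, 0.97 for Ccl7 and Ccl12 and 0.96 for Ccl3 and Ccl4 over all 8 libraries. Ccl5 and Ccl9 had r = 0.62 and Ccl6 and Ccl3 r = -0.16 (exact permutation adjusted p = 0.266 and 0.759). Ccl8 and Ccl5, next in order but 1409 kb apart, had r = -0.69 (exact permutation adjusted p = 0.174). The neighbours Ccl12 and Ccl8 had r = -0.42 (exact permutation adjusted p = 0.452; rho -0.60, adjusted p = 0.298) and the neighbours Ccl6 and Ccl9 r = 0.13 (exact permutation adjusted p = 0.762; rho 0.24, adjusted p = 0.655). With 1 library left out, these 2 values ran from -0.68 to -0.35 and from -0.35 to 0.27. A relation of position to profile was not tested. With each group centred on its own mean, r was 0.97 for Ccl7 and Ccl12, 0.96 for Ccl3 and Ccl4, and 0.83 for Ccl8 and Ccl24, so the sets vary within the groups.

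**Figure D4:**
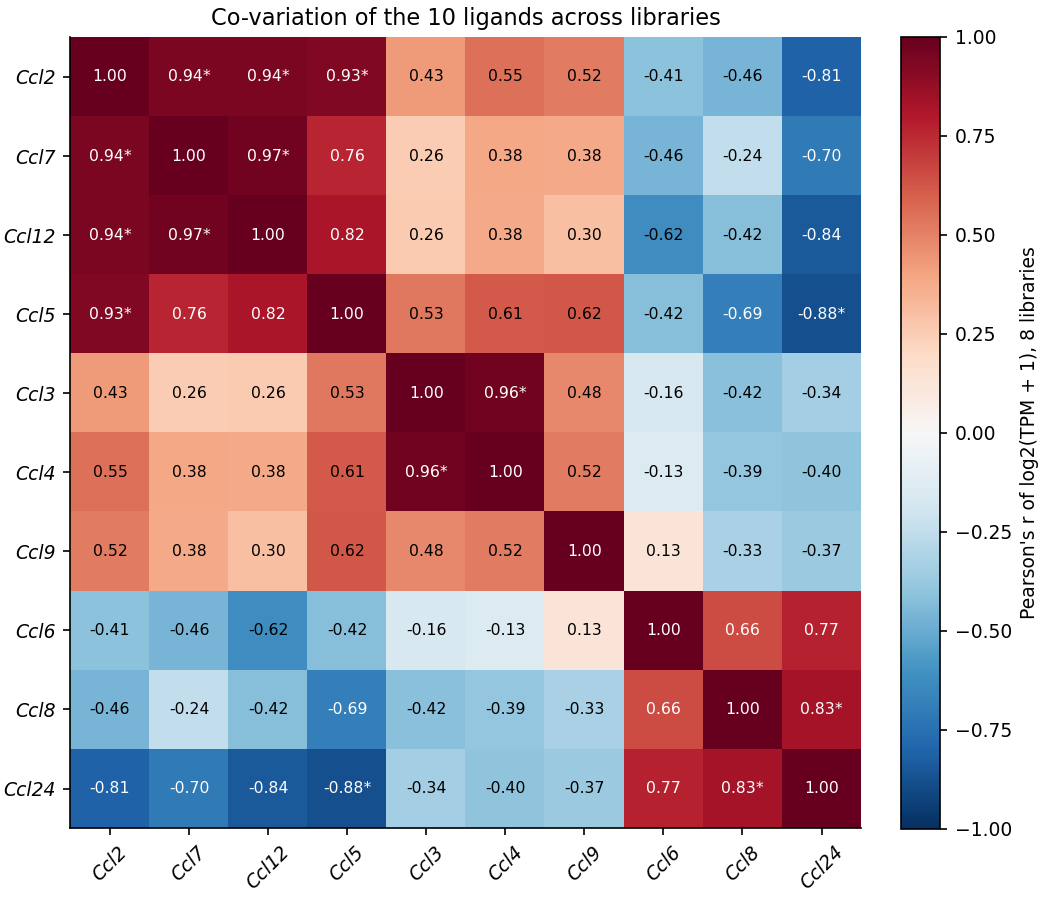
Pearson's r of log2(TPM + 1) over the 8 libraries for each pair of the 10 ligands, from -1 (blue) to 1 (red), with an asterisk where the exact permutation p adjusted over 45 pairs is under 0.05. Ccl2, Ccl7, Ccl12 and Ccl5 form a red block, Ccl3 and Ccl4 a separate pair at 0.96, and Ccl8 and Ccl24 a pair at 0.83 that is blue against the first block.

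Several of these ligands varied with the monocyte and resident macrophage markers of the libraries. The mean log2(TPM + 1) of 7 monocyte genes was 3.98, 6.91, 6.95 and 5.63 in LOY replicates 1 to 4 and 5.47, 5.41, 6.15 and 6.96 in Control replicates 1 to 4. For 7 resident macrophage genes it was 8.14, 6.85, 6.57 and 7.08 in the LOY libraries and 7.36, 7.36, 6.29 and 6.42 in the Control libraries. The spread is wide within each group: the monocyte gene Ly6c2 held 45.2 to 1502 TPM in LOY and 250.02 to 1754 TPM in Control libraries, and the resident gene Lyve1 19.1 to 85.5 TPM in LOY and 11.5 to 61.9 TPM in Control libraries. The exact two-sided permutation p between LOY and Control was 0.943 for the monocyte mean and 0.600 for the resident mean. Bulk libraries cannot tell fewer cells of a type from less RNA per cell.

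Among 30 relations, of the 10 members to 3 gene lists, 9 had a Pearson adjusted p under 0.05 and 10 a Spearman adjusted p under 0.05. The share of all tested genes that follow these lists was not computed, so these counts do not set the ligands apart from other genes. The count of 9 was 5 without LOY replicate 1 or 2, 4 without LOY replicate 3 and 3 without Control replicate 4. Ccr2 and Hp, named elsewhere here, belong to the monocyte list. With the monocyte mean, Ccl5 had r = 0.95 (exact permutation adjusted p = 0.00694; rho 0.95, adjusted p = 0.0112), Ccl2 r = 0.87 (exact permutation adjusted p = 0.0301; rho 0.95, adjusted p = 0.0112) and Ccl12 r = 0.83 (exact permutation adjusted p = 0.0407; rho 0.93, adjusted p = 0.0112). Ccl24 had r = -0.95 (exact permutation adjusted p = 0.00800; rho -0.88, adjusted p = 0.0310). Without LOY replicate 1 and Control replicate 4, the libraries farthest from the median monocyte mean, these r were 0.88, 0.92, 0.99 and -0.92. Ccl7 had r = 0.73 (exact permutation adjusted p = 0.0903; rho 0.79, adjusted p = 0.0762), and 0.98 without those 2 libraries. With the resident mean, Ccl5 and Ccl2 had r = -0.96 and -0.86 (exact permutation adjusted p = 0.00694 and 0.0319; rho -0.93 for both, adjusted p = 0.0112), and -0.97 and -0.98 without LOY replicate 1 and Control replicate 3. Ccl3, Ccl4, Ccl6, Ccl7, Ccl8 and Ccl9 passed with neither marker list by either measure. For Ccl8 the r with the monocyte mean was -0.77 (exact permutation adjusted p = 0.0630; rho -0.67, adjusted p = 0.156), and -0.42 without LOY replicate 1 and Control replicate 4. Its r with the resident mean was 0.66 (exact permutation adjusted p = 0.122; rho 0.50, adjusted p = 0.282), and 0.44 without LOY replicate 1 and Control replicate 3.

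The third list held 19 immediate early and stress genes such as Fos, Jun and Hspa1a, which are known to respond to enzymatic digestion of tissue. Its mean log2(TPM + 1) was 7.44, 6.21, 6.63 and 6.80 in LOY replicates 1 to 4 and 6.86, 7.34, 6.67 and 6.32 in Control replicates 1 to 4 (exact two-sided permutation p = 0.886). Ccl24 followed it with r = 0.92 (exact permutation adjusted p = 0.00694; rho 0.95, adjusted p = 0.0112), and Ccl5 and Ccl12 ran against it with r = -0.83 each (exact permutation adjusted p = 0.0407 for both; rho -0.83 and -0.86, adjusted p = 0.0461 and 0.0402). Without LOY replicate 1 and Control replicate 2 these r were 0.81, -0.71 and -0.80. For Ccl2 the r was -0.78 (exact permutation adjusted p = 0.0630; rho -0.83, adjusted p = 0.0461). For Ccl3 and Ccl4 the r were -0.14 and -0.18. These lists share the same 8 libraries. In each library the monocyte mean deviated from its average in the opposite direction to the resident and immediate early means. For LOY replicate 1 these deviations were -1.95, 1.13 and 0.66. Correlations between the lists were not computed, and which of them a ligand follows was not tested.

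**Figure D5:**
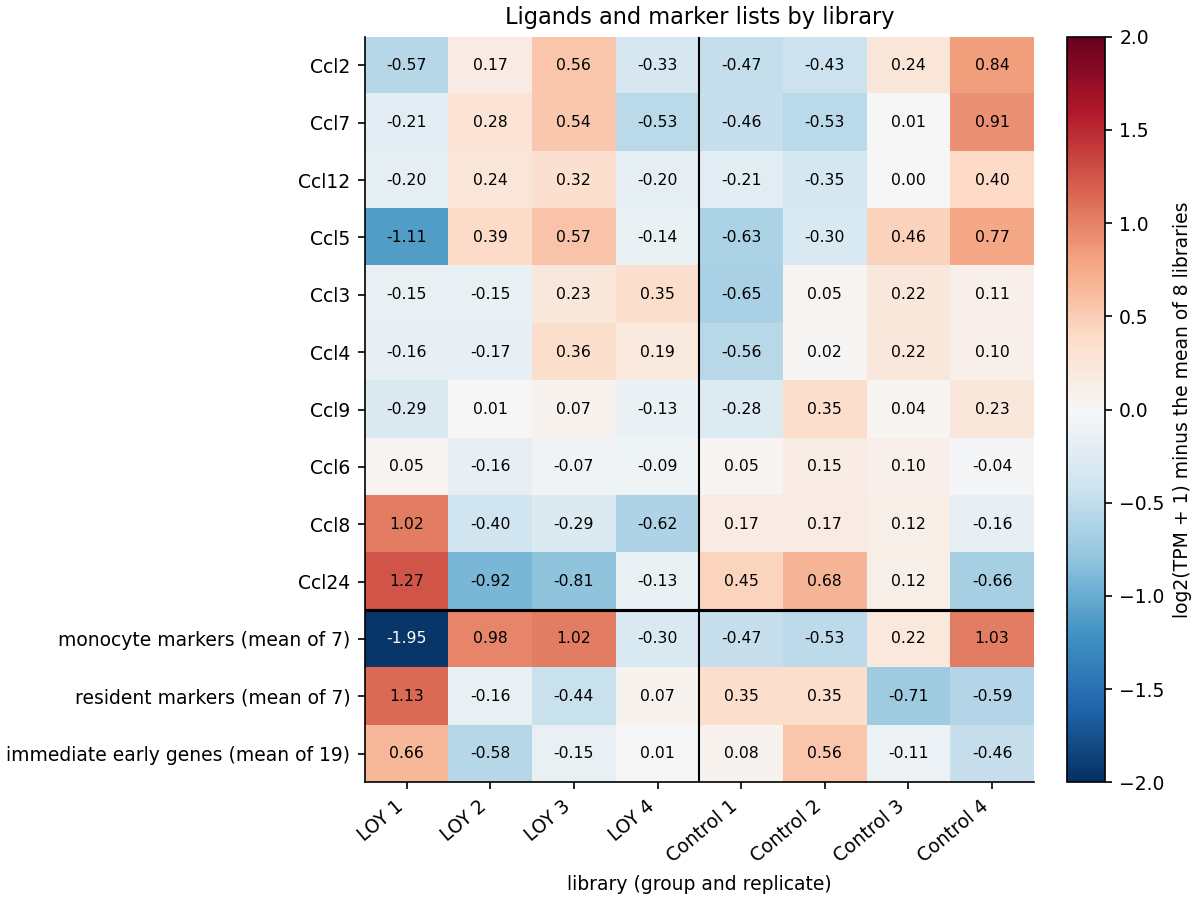
Deviation of log2(TPM + 1) from the mean of the 8 libraries for each ligand (rows above the line) and for the mean of 3 gene lists (rows below it), with the LOY libraries left of the vertical line and the Control libraries right of it. The low monocyte mean of LOY replicate 1 (-1.95) goes with low Ccl5 (-1.11) and high Ccl24 (1.27) and Ccl8 (1.02), and LOY replicates 2 and 3 and Control replicate 4 are high in monocyte markers and in Ccl2, Ccl7, Ccl12 and Ccl5.

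The non-member genes with profiles most like each ligand, by Pearson's r of log2(TPM + 1) over the 8 libraries among 11715 genes, are given as a description. For Ccl5 they were Cxcl11 (r = 0.99), Hp (0.99) and Spp1 (0.98), for Ccl2 Fcrlb (0.98), Lgals9 (0.97) and Alyref2 (0.97), for Ccl7 Slc15a3 (0.96), Batf2 (0.96) and Gmppb (0.95), and for Ccl12 Batf2 (0.98), Gmppb (0.98) and Aldh1b1 (0.97). Dppa3 was the most like both Ccl3 (0.97) and Ccl4 (0.95), followed by Tnfaip8l1 (0.92) and C1galt1c1 (0.88) for Ccl3 and by Pgghg (0.91) and Adat3 (0.90) for Ccl4. For Ccl24 they were Fxyd2 (0.98), Fcna (0.98) and Dbp (0.98), for Ccl8 Pithd1 (0.99), Fahd1 (0.98) and Thap11 (0.98), for Ccl6 Urod, Hyi and Cnpy2 (0.98 each), and for Ccl9 Atp5g3 (0.95), Nob1 (0.95) and Actb (0.94). The number of non-member genes with r over 0.9 was 110 for Ccl5 and 107 for Ccl24, but 2 each for Ccl3 and Ccl4. All of these values rest on the same 8 libraries.

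The receptors of the ligands read here were present at unequal levels, and none passed the test between the groups in limma (0.0% of all tested genes did). Of 10 Ccr genes read here 3 were tested. Ccr2, the receptor of Ccl2, Ccl7 and Ccl12, stood at 391, 874, 835 and 630.1 TPM in LOY replicates 1 to 4, and at 749.0, 613, 560.03 and 823 TPM in the Control libraries (log2 fold change -0.058, SE 0.25; limma adjusted p = 0.90). Ccr1, the receptor of Ccl6 and Ccl9, averaged 66.2 ± 26.5 TPM in LOY and 58.2 ± 33.9 TPM in Control libraries (SD, n = 4 each), with a log2 difference of 0.23 (SE 0.37; adjusted p = 0.725 in limma). Ccr1l1, a Ccr1-like gene, averaged 2.94 ± 1.03 TPM in LOY and 4.73 ± 1.32 TPM in Control libraries (log2 fold change -0.55, SE 0.23; limma unadjusted p = 0.0386, adjusted p = 0.203). Ccr3, the receptor of Ccl24, reached at most 1.15 TPM and Ccr8 at most 0.108 TPM in any library, both below the filter. Of the atypical and related receptors, Ackr2 reached at most 0.529 TPM, and Ccrl2, a non-signalling receptor-like gene, averaged 84.2 ± 8.77 TPM in LOY and 81.2 ± 15.3 TPM in Control libraries (log2 fold change 0.066, SE 0.15; limma adjusted p = 0.807).

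Genes that act downstream of the receptors, or on the transcription and decay of chemokine messages, were read from further lists. Of 21 tested receptor signalling genes, 7 had an unadjusted p under 0.05 and higher means in LOY libraries and 0 had such a p with lower means, with a median log2 fold change of 0.22 (0.16 for all tested genes). Of all tested genes 19.3% were higher and 3.45% lower at this p. After median-of-ratios scaling, where 10.8% of all tested genes were higher and 11% lower at this p, 4 of the 21 were higher and 1 lower, with a median of 0.043. The receptor kinase gene Grk3 averaged 41.6 ± 3.67 TPM in LOY and 27.6 ± 6.56 TPM in Control libraries, and Pik3r5, which encodes a regulatory subunit of the PI3K gamma that receptors activate, 55.7 ± 13.2 TPM in LOY and 29.4 ± 10.1 TPM in Control libraries (SD, n = 4 each; limma adjusted p = 0.179 for both). Grk2, another receptor kinase gene, averaged 102.5 ± 34.7 TPM in LOY and 56.3 ± 23.6 TPM in Control libraries (SD, n = 4 each; limma adjusted p = 0.181). Of 14 tested transcription regulators of chemokine genes, mostly of the NF-kB system, 6 had an unadjusted p under 0.05 and higher means in LOY libraries and 0 lower, with a median of 0.37, beside the same shares of 19.3% and 3.45% over all genes. After median-of-ratios scaling 4 of the 14 were higher and 0 lower, with a median of 0.19, beside 10.8% and 11% over all genes with that scaling. The transcription factor gene Stat3 averaged 144 ± 12.05 TPM in LOY and 98.7 ± 23.3 TPM in Control libraries (SD, n = 4 each; log2 fold change 0.57, SE 0.16; limma adjusted p = 0.179). For comparison, the log2 difference was 0.69 (SE 0.16) for Nfkb2, an NF-kB subunit gene, and 0.80 (SE 0.24) for Tnfaip3, which encodes an inhibitor of that system (limma adjusted p = 0.179 for both). Of 6 genes for RNA-binding proteins that act on such messages, among them Zfp36 and Zc3h12a, 0 had an unadjusted p under 0.05 in either direction, with a median of 0.30. The smallest p of these belonged to Khsrp, Elavl1 and Zfp36l2, with log2 fold changes of 0.99, 0.23 and 0.49 and limma adjusted p of 0.227, 0.307 and 0.344. Of the 19 immediate early genes 0 had an unadjusted p under 0.05, with a median of -0.035, and the smallest p belonged to Egr2, Fosl2 and Hspa1b, with log2 fold changes of 0.26, 0.35 and 0.39 and limma adjusted p of 0.341, 0.364 and 0.377. In limma 0 genes of these 4 lists passed over all genes, and the 3 other CC ligand genes above the filter, Ccl17, Ccl25 and Ccl27a, had log2 fold changes of -0.22, 0.25 and 0.074 with limma adjusted p of 0.789, 0.392 and 0.824.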

How the data were processed

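Libraries of sorted cardiac macrophages were made with the SMART-Seq v4 and Nextera XT kits, per the labels' protocols. The submitters' processing notes name STAR 2.5.2b, Trimmomatic 0.36, bcl2fastq 2.17, Subread 1.5.2 with featureCounts, and GRCm38 (mm10). Which tool produced the TPM is not given there. TPM values, 1 per gene in each library, were deposited by the authors and taken as transcript sums. Their table also carries a comparison of KO with WT: per the file headers a log2 fold change, a score for its error and test statistic, a mean count, and p-values with adjusted p. Columns named WT and KO, numbered 1 to 4, were read as Control and LOY with these replicate numbers, from the names alone. The depth of a library is unknown, so no counting interval is given.

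Testing required a mean of 1 TPM or more, and 156 repeated entries were removed, leaving 11725 genes, all 10 members among them. LOY was compared with Control by limma 3.58.1 (R 4.3.3; trend and robust) on log2(TPM + 1), two-sided, with Benjamini-Hochberg adjustment over all genes and a threshold of 0.05; the code was tested on simulated data. This scale understates changes of low genes. Other tests were exact permutations over libraries or pairings. The kit keeps no strand: Ccl2 overlaps Gm17268 (at most 8.85 TPM) and Ccl6 overlaps E230016K23Rik on the opposite strand, so their reads cannot be told apart there. Of the 50-base stretches of Ccl9, 1.97% recurred in transcripts of other genes; the other 9 members had 0. Gene coordinates follow the reference annotation on GRCm38.

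Members, gene lists and tests were chosen with earlier results of these data known. Named genes were the members, the 3 non-members most like each, 5 receptors (another is not reported here) and the 3 smallest p of each list that held no members or cell type markers. Genes outside that rule (Ly6c2, Lyve1, C1qa, Mertk, Csf1r, Ncr1, Csf3r, S100a8, S100a9, Cd79b, Ccl20, Ccl27b, the Y genes and list examples) were chosen after their values were seen, as were the relations to 3 gene lists. Alternatives covered the pseudocount (0.1 and 5), the filter (none, or 5 TPM), scaling (quantile or median of ratios), a replicate block, plain limma, weighted libraries and the omission of each library.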

Additional observations from a re-analysis of the deposited data

Results flagged for a closer look

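Values were compared within 44 groups of 4 libraries for a library whose gap to its nearest neighbour, as a share of the group's range, exceeded Dixon's 95% critical value, which chance passes in about 1 of 20 groups, and 5 were found. Ccl8 in LOY replicate 1, at 974 TPM, stood above the other LOY libraries at 311 to 394 TPM. Ccl8 in Control replicate 4, at 431 TPM, stood below the other Control libraries at 521 to 539 TPM, with a gap of 0.831 of the range. The summed Y transcripts of LOY replicate 2, 46.4 TPM, stood above those of the other LOY libraries, and without that library the log2 fold changes of the 10 ligands still had a limma adjusted p above the threshold. Ccr1 in Control replicate 4, at 109 TPM, stood above the other Control libraries at 38.0 to 47.2 TPM, in the library that also held the most Ccl2, Ccl7, Ccl12 and Ccl5. Ccl17 in LOY replicate 4, at 7.96 TPM, stood above the other LOY libraries at 2.65 to 2.93 TPM.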

How the results depend on the processing

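The count of ligands with a limma adjusted p under 0.05 was 0 under each of the 17 alternatives, including the replicate block, library weights and the loss of any library. Over all genes the count was 0 with all libraries weighted equally, 3103 (26.5%) with library weights, and 0 to 1805 when 1 library was left out (1805, or 15.4%, without control replicate 1; 5 when LOY replicate 2 was omitted; 1 when control replicate 4 was). By exact permutation 1 ligand, Ccl6, had a p under 0.05 after median-of-ratios scaling, as did 9.28% of all tested genes. The sign of the log2 fold change turned for Ccl3 (-0.045), Ccl4 (-0.072), Ccl7 (-0.14) and Ccl12 (-0.10) with that scaling, and for Ccl2 (0.15) and Ccl5 (0.19) with library weights. Leaving out 1 library gave -0.29 to 0.18 for Ccl2, -0.058 to 0.23 for Ccl3, -0.057 to 0.20 for Ccl4, -0.38 to 0.20 for Ccl5, -0.14 to 0.35 for Ccl7, -0.51 to 0.037 for Ccl8 and -0.023 to 0.23 for Ccl12. Ccl6, Ccl9 and Ccl24 stayed below 0 under all 17 alternatives. The 7 pairs of ligands past the threshold became 2 to 9 when 1 library was left out (2 without control replicate 1, 3 without LOY replicate 3 or control replicate 4), and the 9 relations to gene lists 3 to 10 (3 without control replicate 4, 4 without LOY replicate 3, 5 without LOY replicate 1 or 2). The cause of these changes was not tested beyond the smaller number of libraries. With the replicate block 0 ligands and 0 genes passed, and 2489 genes had an unadjusted p under 0.05, against 2667 without it. Same-numbered libraries did not deviate together (r of -0.030, -0.15, 0.039 and -0.072), so the numbers were not taken as pairs. With 4 libraries a group, the upper bounds of the 95% intervals were 1.43 times the Control level or more for 8 of the 10 ligands, all but Ccl6 and Ccl9.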
